A study of Saccharomyces cerevisiae with 6 samples.

Results

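HSP26 (YBR072W) and HSP42 (YDR171W) are the small heat shock protein genes of budding yeast, and they make up 2 of the 6461 genes counted here by 3′-Tag-seq, a method that sequences 1 short tag near the 3′ end of each polyadenylated RNA. Both were taken by name from the raw count table, and they were chosen with their measured counts at the 3 temperatures already known. Their levels and temperature differences are therefore given as a description, without a test. Both passed the filter on low counts, which 5181 genes passed.

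Small heat shock proteins bind proteins that begin to unfold and hold them in a state from which the ATP-driven chaperones can refold them. Hsp26 forms large oligomers that become active on heating, and its gene is known for very low expression in growing cells and strong induction by heat and starvation. Hsp42 is known to be made in unstressed cells as well and to collect misfolded proteins into deposits at the cell periphery, whereas Btn2 takes part in collecting them near the nucleus. Hsp104, with Hsp70 and Hsp40 partners, pulls proteins out of such deposits. Transcription of heat shock genes is driven by Hsf1, which binds heat shock elements, and by Msn2 and Msn4, which bind stress response elements.

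Total RNA was measured in 3 groups of Saccharomyces cerevisiae cultures in rich medium (YPD), with 2 biological replicates each and 6 libraries in all. One group grew at 25°C and another at 30°C, and the last was moved from 25°C to 37°C for 2 h. That last group received an equal volume of pre-warmed medium and spent the first 15 min in a water bath, so that heat and fresh medium cannot be told apart in any comparison with 37°C. All 6 libraries came from 1 strain background (BY4741/2) carrying 2 tagged genes, CBP80-PPX-PrA (the cap-binding protein Cbp80 with a protein A tag) and SNAPf-YRA1 (the mRNA export adaptor Yra1 with a SNAP tag), and an untagged strain was not analysed here. These are bulk cultures, in which fewer expressing cells and less RNA per cell cannot be told apart.

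The libraries held between 184456 and 1006632 gene counts, with the lowest total in 25°C replicate 1. This library also stood apart from the rest: its correlation with the others over log2 CPM (gene counts scaled to a common library size with TMM factors) was 0.716 to 0.862, against 0.904 to 0.974 among the other 5. As the strain table states a mating type a strain with deletions, its markers were checked. URA3 and MET17 had 0 counts throughout, LYS2 and LEU2 had at most 2, and HIS3, of which the his3Δ1 allele lacks only a part, had 3 to 124. STE2, the α-factor receptor of a cells, had 22 to 273 counts, whereas STE3 and MF(ALPHA)1 of α cells had at most 5.

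HSP26 lies on chromosome II (382030 to 382674 in R64, + strand), with 1 exon of 645 bases that encodes 214 residues. HSP42 lies on chromosome IV (806621 to 807748 in R64, + strand), with 1 exon of 1128 bases that encodes 375 residues. The DNA upstream of each start codon was read from the R64 genome and searched on both strands for the stress response element (AGGGG or CCCCT), the heat shock element of 3 units (GAA, TTC and GAA, or TTC, GAA and TTC, each pair 2 bases apart) and a TATA box (TATAAA or TTTATA). The stretches that hold the matches are shown because they hold the letters that stress transcription factors are known to read. Matches are in capitals, and each stretch is written 5′ to 3′ on the gene's own strand. The first covers 170 bases, from 485 to 316 bases before the HSP26 start codon, the next 30 bases nearer to that gene, and the last 80 bases, from 250 to 171 bases before the HSP42 start codon.
HSP26 chrII:381545-381714: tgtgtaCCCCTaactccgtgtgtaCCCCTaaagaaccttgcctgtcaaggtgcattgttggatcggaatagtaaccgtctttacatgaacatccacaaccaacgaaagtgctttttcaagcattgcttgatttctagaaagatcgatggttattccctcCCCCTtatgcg
HSP26 chrII:381864-381893: tattcctaaacaTATAAAtaggacctccat
HSP42 chrIV:806371-806450: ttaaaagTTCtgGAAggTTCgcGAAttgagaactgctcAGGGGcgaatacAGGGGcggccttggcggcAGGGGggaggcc

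HSP26 and HSP42 each had 3 stress response elements in the 500 bases before the start codon, a number that 1.83% of the 6000 genes with such a window reached. At least 1 such element was found for 34.1% of genes. The 3 elements of HSP26 lay far out, at 479 to 475, 461 to 457 and 326 to 322 bases before the start codon, and all read CCCCT on the gene's strand. Those of HSP42 lay closer together and nearer to the gene, at 212 to 208, 200 to 196 and 182 to 178 bases, and all read AGGGG. Only HSP42 had the heat shock element of 3 units, with 2 matches that overlap (243 to 231 and 238 to 226 bases), so that the run holds 4 alternating units. This element was found for 1.48% of genes, and 0.300% had 2 or more matches. HSP26 had 1 TATA box, 154 to 149 bases before the start codon, and HSP42 had none, against 60.5% of genes with at least 1. In the shorter window, from 250 bases before to 50 after the start codon, HSP26 kept the TATA box but had 0 stress response elements, while HSP42 had the same matches as before. Over the 6001 genes with this window, 21.6% held a stress response element, 0.783% the heat shock element and 45.2% the TATA box. Heat shock elements with fewer units or with mismatches were not searched for. These are matches of letters, and binding was not measured in these libraries.

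**Figure D1:**
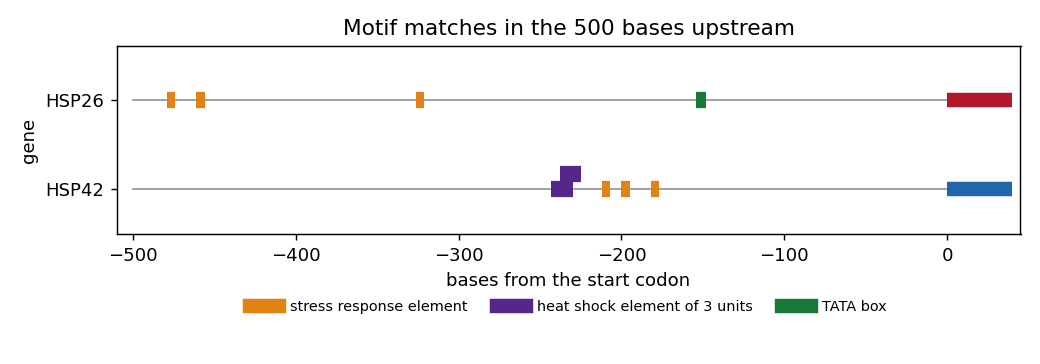
Motif matches upstream of HSP26 (top) and HSP42 (bottom), placed by their distance in bases from the start codon (the coloured bar at 0). The 3 stress response elements of HSP26 (orange) sit between 479 and 322 bases out and its TATA box (green) at 154 to 149, whereas the overlapping heat shock elements (purple, 1 drawn above the other) and the 3 stress response elements of HSP42 sit between 243 and 178 bases out.

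HSP26 mRNA was barely detected at 25°C, was seen at 30°C, and had its highest counts at 37°C. The 25°C libraries gave only 1 and 5 counts of it, those from 30°C gave 67 and 24, and those from 37°C gave 407 and 659. As CPM, the pairs came to 5.88 and 5.92 (25°C), 75.6 and 34.0 (30°C), and 434 and 618 (37°C). The libraries of the 3 temperatures did not overlap. On the log2 scale, though not in CPM for 25°C to 30°C, each step between temperatures was wider than the gap between replicates. The exact Poisson 95% interval, which covers counting error only here and below, was 0.149 to 32.8 CPM for the single count of 25°C replicate 1 and 1.92 to 13.8 CPM for replicate 2. At 30°C the replicates differed by more than counting error, with intervals of 58.6 to 96.0 and 21.8 to 50.6 CPM, and at 37°C likewise, with 393 to 478 and 572 to 667 CPM. Per kilobase of coding length, HSP26 ranked 4503rd and 4861st of the 5181 tested genes in the 25°C libraries, 1787th and 2819th in those from 30°C, and 269th and 175th in those from 37°C. As the method reads 1 tag per RNA, dividing by length favours short genes, so these ranks compare genes only roughly.

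HSP42 mRNA was detected in every library, at 176 to 376 CPM. The 25°C libraries gave 64 and 210 counts of it, those from 30°C gave 207 and 124, and those from 37°C gave 185 and 251. As CPM, the pairs came to 376 and 249 (25°C), 233 and 176 (30°C), and 197 and 235 (37°C). On this scale both 37°C libraries and both 30°C libraries lay below both 25°C libraries, and 37°C and 30°C overlapped. As a percentage of gene counts without TMM scaling, 37°C (0.0220 and 0.0263) and 25°C (0.0347 and 0.0237) overlapped, so that the gap between them depends on the scaling. The highest value, 376 CPM with an interval of 290 to 480, came from 25°C replicate 1, the library that stood apart. The other 25°C library, with an interval of 216 to 285 CPM, overlapped in counting error with both 37°C libraries, at 170 to 228 and 207 to 266 CPM. It also overlapped with 30°C replicate 1, at 203 to 268 CPM, but not with 30°C replicate 2, at 146 to 209 CPM. Per kilobase, with the same limit, HSP42 ranked between 638th (25°C replicate 1) and 1326th (30°C replicate 2) in all 6 libraries.

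**Figure D2:**
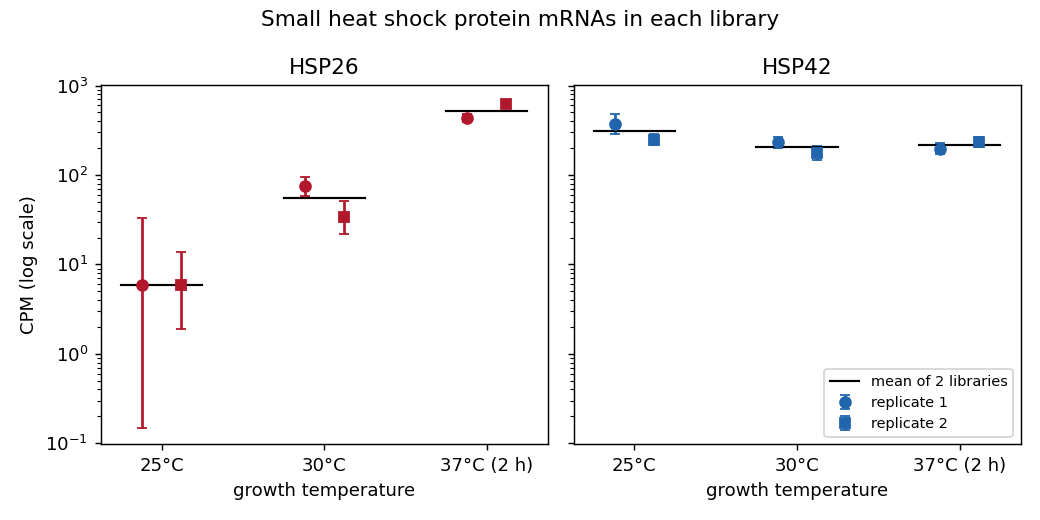
CPM of HSP26 (left) and HSP42 (right) on a log scale in each of the 6 libraries, with exact Poisson 95% intervals from the counts and the mean of the 2 replicates as a black line. HSP26 means were 5.90 CPM (25°C), 54.8 CPM (30°C) and 526 CPM (37°C), whereas all HSP42 libraries lay between 176 and 376 CPM.

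Since both genes were counted in the same library, their ratio does not depend on how libraries were scaled. HSP26 made up 1.54% (Wilson 95% interval 0.272% to 8.21%) and 2.33% (0.997% to 5.33%) of the counts of both genes at 25°C. At 30°C its share was 24.5% (19.7% to 29.9%) and 16.2% (11.1% to 23.0%). At 37°C it was 68.8% (64.9% to 72.4%) and 72.4% (69.4% to 75.2%). No interval at one temperature reached that of another, and within each temperature the replicates' intervals overlapped. HSP42 thus gave more counts of the pair at 25°C and 30°C and HSP26 at 37°C, and the order was the same per kilobase. Tags wholly in a 3′ untranslated region were not counted, and their share can differ between genes. The order of counts is therefore not shown to be the order of mRNA levels. The HSP26 to HSP42 ratio of CPM per kilobase was 0.0273 and 0.0416 in the 25°C libraries, 0.566 and 0.338 in those from 30°C, and 3.85 and 4.59 in those from 37°C. On the log2 scale the count ratio averaged −5.70 ± 0.43 (25°C), −2.00 ± 0.52 (30°C) and 1.27 ± 0.18 (37°C; SD, n = 2 each).

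The summed CPM of both genes was 382 and 254 in the 25°C libraries, 309 and 209.6 in those from 30°C, and 631 and 853 in those from 37°C. The sum was therefore higher in both 37°C libraries than in the other 4, while 25°C and 30°C overlapped. At 25°C nearly all of it was HSP42, and at 37°C most of it was HSP26.

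**Figure D3:**
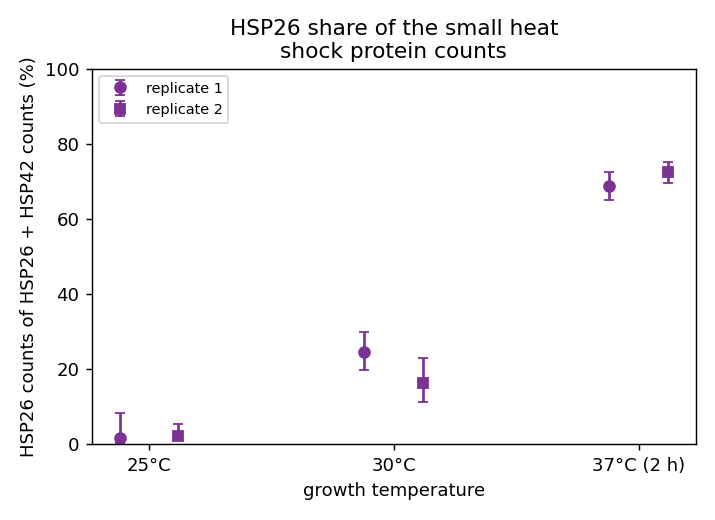
HSP26 counts as a percentage of HSP26 plus HSP42 counts in each library, with Wilson 95% intervals, by growth temperature. The share was 1.54% and 2.33% (25°C), 24.5% and 16.2% (30°C), and 68.8% and 72.4% (37°C).

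The comparison of 37°C with 25°C asks which mRNAs differ after 2 h at 37°C with added pre-warmed medium. HSP26 averaged 526 ± 130.3 CPM at 37°C and 5.90 ± 0.0280 CPM at 25°C (SD, n = 2 each). Its edgeR log2 fold change (log2FC) was 6.44 (SE 0.62, 95% interval 5.02 to 7.93), the 3rd highest of 5181 genes. From the summed counts, 1066 at 37°C against 6 at 25°C, the ratio corrected for library size was 89.95-fold with a counting interval of 41.2 to 246, so its width comes from the 6 counts. HSP42 averaged 216 ± 27.0 CPM at 37°C and 312 ± 90.3 CPM at 25°C, with a log2FC of −0.51 (SE 0.35, interval −1.32 to 0.30). Without 25°C replicate 1, the log2FC was 6.41 for HSP26 (SE 0.74) and −0.23 for HSP42 (SE 0.30). With edgeR's quasi-likelihood test, adjusted over all genes, 0% of genes (0 of 5181) passed an adjusted p of 0.05 with a log2FC beyond 1. At an unadjusted p under 0.05, 7.53% of genes were higher and 6.02% lower at 37°C (390 and 312 genes). DESeq2 gave an adjusted p to 1156 genes and called 53 of them, 15 higher and 38 lower. HSP26 was among the 29.4% of genes with both 37°C libraries above both 25°C libraries, and HSP42 among the 23.2% with both below. As the genes were chosen on this contrast, nothing is read from these shares.

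The comparison of 37°C with 30°C sets the heated culture against the temperature at which yeast is usually grown. HSP26 averaged 526 ± 130.3 CPM at 37°C and 54.8 ± 29.4 CPM at 30°C, with a log2FC of 3.25 (SE 0.45, interval 2.19 to 4.31), the 6th highest of 5181. The ratio from summed counts was 9.31-fold (7.51 to 11.7). HSP42 averaged 216 ± 27.0 CPM at 37°C and 204.5 ± 41.0 CPM at 30°C, with a log2FC of 0.08 (SE 0.34, interval −0.72 to 0.88). By edgeR 0% of genes (0 of 5181) were called here, and 4.65% were higher and 2.41% lower at an unadjusted p under 0.05 (241 and 125 genes). DESeq2 gave an adjusted p to 5320 genes and called 15 of them, 11 higher and 4 lower. Both 37°C libraries lay above both 30°C libraries for 24.3% of genes, HSP26 included.

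Between 30°C and 25°C, both steady growth temperatures, HSP26 values also lay apart. It averaged 54.8 ± 29.4 CPM at 30°C and 5.90 ± 0.0280 CPM at 25°C, with a log2FC of 3.19 (SE 0.64, interval 1.73 to 4.72), the 4th highest of 5181. The ratio from summed counts was 9.66-fold, with a counting interval of 4.27 to 27.0. Without 30°C replicate 1, the higher of the 2 at that temperature, the log2FC of 30°C over 25°C was 2.49 and that of 37°C over 30°C was 3.92. HSP42 averaged 204.5 ± 41.0 CPM at 30°C and 312 ± 90.3 CPM at 25°C, with a log2FC of −0.59 (SE 0.35, interval −1.41 to 0.23), and −0.27 without 25°C replicate 1. For this pair 0% of genes (0 of 5181) were called by edgeR, with 57 higher and 16 lower at an unadjusted p under 0.05, and DESeq2 also called 0. HSP26 was among the 13.1% of genes with both 30°C libraries above both 25°C libraries, and HSP42 among the 10.4% with both below. The comparisons share libraries, so their values stand side by side and are not independent of each other.

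The listed protein quality control genes were mixed in direction at 37°C against 25°C. The list is broad: it also holds genes of mitochondrial chaperones and of the ubiquitin system, not only partners of Hsp26 and Hsp42. Of 36 protein quality control genes, all of them tested, 11 were higher and 3 lower at an unadjusted p under 0.05, or 30.6% and 8.33%, against 7.53% and 6.02% of all genes tested, and 0 passed edgeR's adjusted threshold. Their median log2FC was 0.21, against 0.09 over all genes tested, and 23 were positive. Without 25°C replicate 1 these counts were 8 and 4 (22.2% and 11.1%, against 6.34% and 4.002% of all genes), with a median of 0.15 against 0.01 over all genes. Against 30°C, 7 were higher and 2 lower at an unadjusted p under 0.05 (19.4% and 5.56%, against 4.65% and 2.41% of all genes), with a median of 0.06 against −0.01 over all genes.

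The disaggregase HSP104, which recovers proteins held by Hsp26 and Hsp42, had 730 and 640 CPM at 37°C, against 758 and 440 CPM at 25°C, a log2FC of 0.20 (SE 0.40). Its groups overlapped, as 25°C replicate 1 had the highest value. BTN2, the sorting factor that acts beside Hsp42, had 79.9 and 89.1 CPM at 37°C, against 235 and 252 CPM at 25°C, a log2FC of −1.53 (SE 0.37). Its paralog CUR1 had 37.3 and 37.5 CPM at 37°C, against 88.2 and 67.5 CPM at 25°C, a log2FC of −1.01 (SE 0.34). Both genes had lower values in both 37°C libraries than in any other, at edgeR adjusted p = 0.225 for BTN2 and 0.314 for CUR1. The Hsp70 exchange factor gene FES1 (log2FC −0.85, SE 0.33) and the Hsp90 co-chaperone gene SBA1 (−0.76, SE 0.42) also had both 37°C values below both 25°C values.

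Among the quality control genes with higher values, UBI4, the polyubiquitin gene, had 419 and 323 CPM at 37°C, against 58.8 and 94.7 CPM at 25°C. Its log2FC was 2.20 (SE 0.36, edgeR adjusted p = 0.138). SSE2, a nucleotide exchange factor of Hsp70, had 638 and 647 CPM at 37°C, against 212 and 159 CPM at 25°C, a log2FC of 1.81 (SE 0.37). HSP78, the mitochondrial relative of HSP104, had 248 and 325 CPM at 37°C, against 94.1 and 124 CPM at 25°C, a log2FC of 1.36 (SE 0.34). The groups did not overlap for any of these 3 genes. HSP12, which encodes a small membrane-associated heat shock protein unrelated to Hsp26, had 109 and 190 counts at 37°C and 0 in both 25°C libraries. Set against the 3 counts over the 25°C group that a count of 0 allows, it was at least 49.8-fold higher at 37°C. The Hsp70 genes SSA1 and SSA2 and the Hsp90 genes HSC82 and HSP82 are near-identical copies, and how reads were split between them is uncertain. HSP82 had a log2FC of 1.14 (SE 0.41) and HSC82 of −0.64 (SE 0.41).

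**Figure D4:**
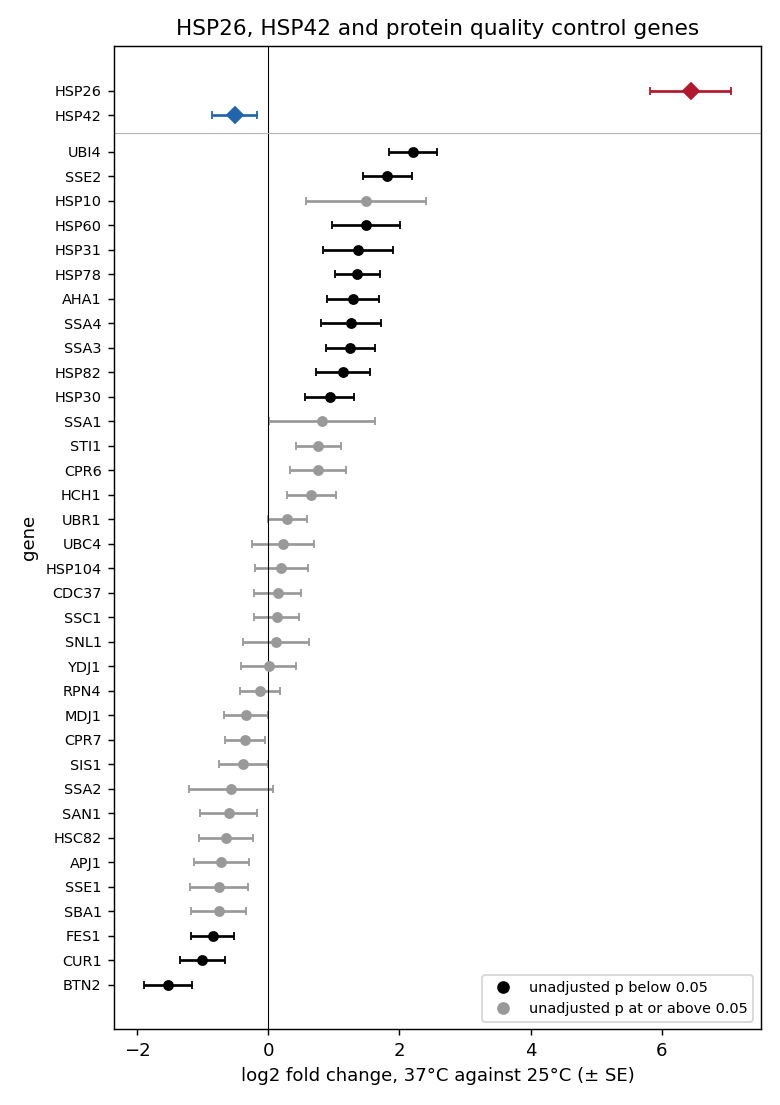
Log2 fold change of 37°C against 25°C with its SE for HSP26 (red), HSP42 (blue) and 35 of the 36 protein quality control genes, sorted by value, with black points for an unadjusted p below 0.05 and grey for the rest. HSP26 at 6.44 lies beyond all quality control genes drawn (UBI4 at 2.20 is the highest), and HSP42 at −0.51 lies among those below 0. HSP12 is left out because it had 0 counts at 25°C.

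Targets of Msn2 and Msn4, listed here as general stress genes, mostly had higher values at 37°C. Of 41 listed genes 35 were tested, 22 were higher and 0 lower at an unadjusted p under 0.05, or 62.9% and 0%, against 7.53% and 6.02% of all genes tested, and 0 passed the adjusted threshold. Their median log2FC was 1.48 with 31 positive, against a median of 0.09 over all genes. HSP12 lies above this median both as fitted and at its bound, so the choice between them cannot move it. Without 25°C replicate 1, 19 of 38 were higher and 0 lower, against 6.34% and 4.002% of all genes, with a median of 1.22 against 0.01 over all genes. Against 30°C, 13 were higher and 0 lower at 37°C (37.1% and 0%, against 4.65% and 2.41% of all genes), with a median of 0.84 against −0.01 over all genes. For 30°C over 25°C the median was 0.61, against 0.08 over all genes. A gene of this list that is low in every library could not pass the filter. Genes low at 25°C and 30°C, such as HSP12, SOL4 and GND2, passed it only through their 37°C libraries. Such genes could enter these counts only as higher at 37°C, and this holds for HSP12 in the quality control list too. Both lists were chosen with earlier results of these data known, and 5 genes (HSP104, HSP12, SSA3, SSE2 and UBI4) stand in both. The hexokinase gene HXK1 had 384 and 431 CPM at 37°C, against 35.3 and 39.1 CPM at 25°C, a log2FC of 3.43 (SE 0.38, edgeR adjusted p = 0.0646). The glycogen phosphorylase gene GPH1 had 113 and 161 CPM at 37°C, against 11.8 and 8.29 CPM at 25°C, a log2FC of 3.90 (SE 0.46, edgeR adjusted p = 0.0680). For GAD1, glutamate decarboxylase, the log2FC was 2.53 (SE 0.39). In none of these 3 genes did 37°C and 25°C overlap, and their 30°C values lay between the other 2 temperatures, as those of HSP26 did. Of the 4 tested genes below 0, GLK1, a glucokinase gene, had the smallest p, with a log2FC of −0.67 (SE 0.59). SDS23, GSY1 (glycogen synthase) and SOD2 (mitochondrial superoxide dismutase) had log2FC of −0.58, −0.25 and −0.14, and their groups overlapped.

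The mRNAs of the regulators of both pathways were read in the same way. Of 24 regulator genes 23 were tested, 1 was higher and 2 lower at an unadjusted p under 0.05, shares of 4.35% and 8.70% that lie near the 7.53% and 6.02% of all genes, and the median log2FC was −0.24 against 0.09 over all genes. Without 25°C replicate 1, 0 were higher and 1 lower of 24, against 6.34% and 4.002% of all genes, with a median of 0.13. HSF1, the heat shock factor gene, had 80 and 110 counts at 37°C, against 10 and 48 at 25°C, and 85.3 and 103 CPM against 58.8 and 56.8 CPM, a log2FC of 0.71 (SE 0.34). MSN4 had 26 and 30 counts at 37°C, against 1 and 9 at 25°C, a log2FC of 1.53 (SE 0.62). MSN2 had 18 and 14 counts at 37°C, against 10 and 19 at 25°C, a log2FC of −1.06 (SE 0.57). In CPM the MSN2 groups did not overlap, but only 25°C replicate 1, at 58.8 CPM, stood clear, as the other 5 libraries lay at 22.7 CPM or below. BCY1, the regulatory subunit of protein kinase A, and RIM15, a kinase of stationary phase entry, had log2FC of 1.03 (SE 0.66) and 0.53 (SE 0.35). MBF1, a transcriptional coactivator, and BMH2, a 14-3-3 protein gene, had log2FC of −1.65 (SE 0.47) and −1.59 (SE 0.60). BMH2 had 489 and 370 CPM at 37°C, against 1952 and 650 CPM at 25°C, with the highest value in 25°C replicate 1, the library that stood apart. TPK3, a catalytic subunit of protein kinase A, and SNF1, the yeast AMP-activated kinase, had −0.73 (SE 0.36) and −0.76 (SE 0.39). The measured quantity is mRNA, and activity of these regulators was not measured.

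The upstream elements were then set beside the fold changes of all genes, as a description made after the values were seen. Here a heat shock element means an exact match to the form of 3 units. There were 105 genes with 3 or more stress response elements and no such match, the class of HSP26. Of these 88 were tested, and at 37°C against 25°C their median log2FC was 0.47. At an unadjusted p under 0.05, 22 were higher and 3 lower, against 7.53% and 6.02% of all genes tested. HSP26 and HSP42 were chosen on this contrast. HSP26 is counted in this class, and HSP42 in the classes with a heat shock element given below. Of the 89 genes with a heat shock element, 80 were tested and had a median of 0.10, with 10 higher and 6 lower. Of the 3896 genes with neither element, 3267 were tested and had a median of 0.04, with 169 higher and 202 lower. Genes with at least 1 but fewer than 3 stress response elements, and no heat shock element, are in none of these classes. As in the gene lists, a gene that passed the filter only through its 37°C libraries could enter these counts only as higher. How many such genes each class holds was not counted. HSP42 was 1 of only 5 genes with 3 or more stress response elements and a heat shock element, beside HSP78, HSP104, CUE4 and TSL1 (the last pair lie back to back, so their windows overlap), and the median of these 5 was 0.20. A stress response element stood in the 500 bases upstream of 16 of the 36 quality control genes and 36 of the 41 general stress genes, against 34.1% of all genes. A heat shock element stood there for 14 quality control genes and 5 general stress genes, against 1.48% of all genes. In the shorter window these counts were 14 and 27 for the stress response element (21.6% of all genes) and 8 and 0 for the heat shock element (0.783%).

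The genes whose log2 CPM followed each small heat shock protein gene most closely over the 6 libraries were also listed. For HSP26 they were PBI2, an inhibitor of vacuolar proteinase B (Pearson's r = 0.994), OM14, a mitochondrial outer membrane protein (0.990), YJR079W (0.989), ALD4, a mitochondrial aldehyde dehydrogenase (0.989), and HXK1 (0.987). PBI2 had 11.8 and 11.8 CPM in the 25°C libraries, 23.7 and 18.4 CPM in those from 30°C, and 45.8 and 58.1 CPM in those from 37°C, the same order of libraries as HSP26 over a narrower range. YJR079W had 14 counts or fewer in each library and passed the filter only through its 37°C libraries. It could therefore enter only as a gene high at 37°C, as HSP26 is. For HSP42 they were ERG6, a sterol methyltransferase of ergosterol synthesis (0.968), PBP2, an RNA-binding protein (0.968), SNR72, a small nucleolar RNA (0.968), MVP1, a sorting nexin (0.963), and UTP11, a ribosome biogenesis factor (0.957). Each of these 5 had its highest CPM in 25°C replicate 1. With total counts in place of TMM scaling, 2 of the 5 genes were again among the top 5 for each member, and without 25°C replicate 1, 2 were for HSP26 and 0 for HSP42. HSP26 and HSP42 themselves had an r of −0.51, and −0.13 without 25°C replicate 1. The libraries share temperature, depth and scaling, and r over 6 points picked from 5181 genes is a description only.

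The annotated neighbours of both genes were read as well. Left of HSP26, YBR071W ends 983 bases away and had 109 and 73.2 CPM at 37°C, against 106 and 43.8 CPM at 25°C, a log2FC of 0.44 (SE 0.49). Right of HSP26, YBR072C-A lies 185 bases away on the other strand, had 0 to 6 counts in each library and was not tested. Left of HSP42, YDR170W-A lies 2103 bases away and had at most 1 count per library. Right of HSP42, SUP35, a translation termination factor gene, starts 575 bases away and had 418 and 400 CPM at 37°C, against 964 and 495 CPM at 25°C, a log2FC of −0.83 (SE 0.45). The SUP35 groups did not overlap, with the highest value in 25°C replicate 1, as for HSP42. The R64 gene models hold no untranslated regions, so tags that lie wholly in a 3′ untranslated region were not counted for either gene, and levels per kilobase of 3′ tags compare genes only roughly.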

How the data were processed

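Total RNA of 6 yeast cultures was measured by 3′-Tag-seq (QuantSeq). The authors deposited raw counts of reads per annotated gene. Per the labels, the tools were STAR 2.7.10a, UMI-tools 1.0.1, DESeq2 1.38.2 and HTSeq 2.0.2, with the R64 genome; whether molecular identifiers were collapsed for these libraries and the strand setting of the counting are not given in the sources used here. A deposited table of normalized values was not used. The 5 summary entries of the counting program (no gene 41.1% to 47.9% of reads, more than 1 place 7.81% to 14.1%, ambiguous 0.0313% to 0.0559%) were left out. Of 6461 genes, 6458 were matched to R64 by locus tag.

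Counts were fitted with edgeR 4.0.16 in R 4.3.3 (filterByExpr, TMM factors of 0.883 to 1.12, glmQLFit with temperature as the only term, all 6 libraries, 5181 genes), and p-values were adjusted over all genes by Benjamini-Hochberg. The common biological coefficient of variation was 0.323. The call was an adjusted p below 0.05 with a log2FC beyond 1. DESeq2 1.42.0, other scalings, no filter, a prior count of 2, a replicate block, fits on 2 temperatures and leaving out each library were alternatives, and the fitting script was tested on simulated data. Replicates are biological per the study's methods.

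HSP26, HSP42 and the 3 gene lists (from textbook roles) were chosen with earlier results of these data known. Named genes are both members, up to 4 genes per list and direction with the smallest p at 37°C against 25°C, HSP104, BTN2, CUR1, HSF1, MSN2 and MSN4, the 5 genes with the highest r with each member (log2 CPM, prior count 2) and annotated neighbours; HSC82 and HSP82 were added after their values were seen. Motifs were searched in the R64 genome.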

Additional observations from a re-analysis of the deposited data

How the results depend on the processing

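The log2 fold change of HSP26 stayed positive in all 3 comparisons under all 13 alternatives each, and that of HSP42 stayed below 0 for 37°C or 30°C over 25°C. For HSP26 at 37°C against 25°C it ran from 5.96 (prior count of 2) to 6.67 (total counts only), and over fits that left out 1 library from 6.16 to 6.67. Leaving out 1 library gave HSP26 2.79 to 3.92 for 37°C over 30°C and 2.49 to 3.64 for 30°C over 25°C, with 3.92 and 2.49 both obtained without 30°C replicate 1. For HSP42 it gave −0.83 (without 25°C replicate 2) to −0.23 for 37°C over 25°C, −0.87 to −0.27 (without 25°C replicate 1) for 30°C over 25°C, and −0.11 to 0.27 for 37°C over 30°C, where the sign turned without 30°C replicate 2 or 37°C replicate 2. The edgeR count of called genes at 37°C against 25°C, 0 in the fit reported, was 7 with total counts only, 4 with no filter, 1 with only these 2 temperatures and 0 to 364 without 1 library (364 without 25°C replicate 2, 1 without either 30°C library), and DESeq2 called 53. For 37°C over 30°C DESeq2 called 15 and all edgeR fits 0, and for 30°C over 25°C all alternatives gave 0. DESeq2 gave an adjusted p to 1156 genes for 37°C over 25°C and to 5320 for 37°C over 30°C. The cause of the differences between these counts of called genes was not tested. Deviations of same-numbered libraries from their temperature means had correlations of 0.278 (37°C and 25°C), −0.401 (37°C and 30°C) and −0.534 (30°C and 25°C). With 2 libraries per temperature these values cannot settle whether the cultures were paired by replicate number. With a replicate block, log2 fold changes at 37°C against 25°C were 6.40 (HSP26) and −0.49 (HSP42), for 37°C over 30°C 3.31 and 0.11, for 30°C over 25°C 3.09 and −0.59, and 0 genes were called in each. Counts of 1 and 5 at 25°C limit the size of the HSP26 fold change far more than its direction.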
